A study of Mus musculus with 27 samples.

Results

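WDR43 peaks called only under DRB are the regions of the DRB list that share no base with any peak of the DMSO list. They were selected on the peak calls of these 2 lists. They numbered 1507 of 4426 DRB peaks, or 34.0%, and the other 2919 DRB peaks, called shared here, overlapped at least 1 DMSO peak. Both lists come from FLAG chromatin immunoprecipitation sequencing (ChIP-seq) of mouse embryonic stem (ES) cells whose WDR43 carries an Fbio tag, with 1 library for DMSO, the solvent, and 1 for DRB. ActD (actinomycin D) treatment of the same tagged cells gave 1 more list, and FB-tagged and cFB-KI cells, for which the labels give no treatment, gave 1 each. RNA polymerase II (Pol II) was mapped in cells with a control short hairpin (shCtl) or one against WDR43 (shWDR43), by antibodies to the hypophosphorylated form (hypoP) and to the Ser5P and Ser2P forms, with 2 libraries per group and form. RNA was sequenced in 2 shCtl and 2 shWDR43 libraries. The labels give the genotype of the Ser5P, RNA and shCtl hypoP cells as wildtype and none for the other Pol II libraries. They state neither dose nor time of DRB, ActD or the hairpins, nor whether a line is 1 clone, and they leave unsaid what the numbers 1 and 2 of a ChIP group stand for. All cells grew with leukemia inhibitory factor, which maintains the undifferentiated state.

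WDR43 is a WD-repeat protein of the nucleolus, where it works in the small-subunit processome, which cuts and folds the precursor of ribosomal RNA. DRB is a nucleoside analogue that inhibits CDK9, the kinase of P-TEFb, and so holds Pol II near the starts of genes. Pol II there is mostly hypophosphorylated or carries Ser5P, whereas Ser2P marks Pol II that is elongating through gene bodies. Actinomycin D intercalates into DNA and blocks transcription by all polymerases.

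The regions were called on build mm9, and the tables used here hold promoter windows of another build, so the sequences shown are promoters of genes with such a peak at the 5′ end. Each is the 250 bases before the gene's start on its own strand, from RefSeq on GRCm38.p6, with matches to 7 short motifs in capitals. Only named genes whose peak reached the 250 bases before the mm9 start were considered. Of these, Actg1 is shown because it carries the highest scored of these peaks at an end of a coding locus, Ddit4 and Cpne2 because they were among the 5 largest RNA rises, and Wdr3 because its product is a partner of WDR43 in the processome.
Actg1 (chr11:120348496-120348745, minus strand): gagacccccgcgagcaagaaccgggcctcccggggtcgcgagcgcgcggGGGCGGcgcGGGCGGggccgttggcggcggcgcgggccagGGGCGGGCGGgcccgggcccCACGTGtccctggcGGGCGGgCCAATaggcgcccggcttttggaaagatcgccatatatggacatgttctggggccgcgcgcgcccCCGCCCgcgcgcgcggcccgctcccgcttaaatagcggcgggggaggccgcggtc
Ddit4 (chr10:59951771-59952020, minus strand): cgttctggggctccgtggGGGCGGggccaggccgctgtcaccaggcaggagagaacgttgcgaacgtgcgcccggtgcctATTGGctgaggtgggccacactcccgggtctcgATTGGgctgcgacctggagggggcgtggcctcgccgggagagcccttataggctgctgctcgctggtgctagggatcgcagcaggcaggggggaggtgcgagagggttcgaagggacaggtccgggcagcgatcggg
Cpne2 (chr8:94532778-94533027, plus strand): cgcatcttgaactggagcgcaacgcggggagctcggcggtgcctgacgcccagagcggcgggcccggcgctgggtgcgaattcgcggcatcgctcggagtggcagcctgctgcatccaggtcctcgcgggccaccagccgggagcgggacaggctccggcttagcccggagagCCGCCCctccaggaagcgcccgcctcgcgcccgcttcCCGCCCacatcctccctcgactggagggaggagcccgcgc
Wdr3 (chr3:100162408-100162657, minus strand): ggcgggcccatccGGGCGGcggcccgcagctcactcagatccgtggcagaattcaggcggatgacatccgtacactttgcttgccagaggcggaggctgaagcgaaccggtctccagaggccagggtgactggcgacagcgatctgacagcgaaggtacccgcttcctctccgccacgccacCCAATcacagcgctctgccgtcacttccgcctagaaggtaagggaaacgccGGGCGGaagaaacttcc

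The capitals mark the GC box, spelled GGGCGG, the CCAAT box bound by the factor NF-Y, and the E-box, spelled CACGTG. Each was read on both strands, so that CCGCCC is also a GC box, and a CCAAT box of the opposite strand reads ATTGG. The Actg1 window held 6 GC boxes, of which a pair overlap, 1 CCAAT box and 1 E-box, and 79.2% of its bases were G or C. Ddit4 had 1 GC box and a pair of CCAAT boxes at 70.0% GC, Cpne2 had 2 GC boxes at 74.4% GC, and Wdr3 had 2 GC boxes and 1 CCAAT box at 64.0% GC. Relative to the start in the deposited mm9 table, the DRB-only peak ran from -23 to 318 bp at Actg1, from -108 to 41 bp at Ddit4, from -140 to 30 bp at Cpne2 and from -15 to 108 bp at Wdr3. Each peak thus reached upstream of its mm9 start. Whether that start matches the GRCm38.p6 start behind the window shown was not checked.

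Of 388 symbols of coding loci with a DRB-only peak at an end, 306 were matched to RefSeq promoters on 1 strand and 281 had the peak at the 5′ end. Among their 360 promoters, 70.3% held a GC box, against 61.3% of 860 promoters of genes with only shared peaks at the 5′ end and 32.7% of all 32851 promoters of the same length. Median GC content was 64.0% for both sets with peaks and 52.4% for all promoters. CCAAT boxes stood in 32.5%, 27.0% and 33.8% of the same sets. The letters TATAAA of the TATA box stood in 4.17%, 6.28% and 12.4%, and the letters CCGGAAG of the ETS motif in 14.2%, 14.2% and 6.91%. E-boxes stood in 8.89%, 11.2% and 6.02%, the cyclic AMP response half-site, TGACGT, in 11.9%, 9.42% and 6.47%, and the YY1 core (GATGGC) in 10.3%, 11.2% and 10.7%. Promoters with DRB-only and with shared peaks thus lay on the same side of the table's share for 6 of the 7 motifs, the exception being the YY1 core. A match describes letters in a window and is not a binding site.

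RNA checked the identity of the cells and the knockdown. The 8 ES cell markers summed to 4760.9 and 4805.1 FPKM in shCtl and to 2603.2 and 2453.6 in shWDR43. FPKM counts fragments per length of transcript and per fragments sequenced. The 8 fibroblast feeder markers summed to 30.0 and 41.5 in shCtl and 36.8 and 63.7 in shWDR43, with Dcn and Lum listed at 0 in all 4 libraries. Col1a1 (12.3 and 18.4 in shCtl, 17.9 and 30.9 in shWDR43) and Col1a2 (12.9 and 16.1, then 16.4 and 28.8) made most of that sum. The 4 neural markers summed to 34.0 and 31.9 in shCtl and 29.8 and 26.8 in shWDR43, and within them Neurod1 was at 3.9 and 4.5, then 15.7 and 12.1. The 4 primitive endoderm markers summed to 1.9 and 1.7, then 4.0 and 3.8. The 3 blood markers summed to no more than 2.0, with Hbb-b1 and Ptprc listed at 0. For Wdr43 the shCtl libraries gave 82.3 and 78.2 FPKM and the shWDR43 libraries 21.2 and 20.7, so the groups did not overlap.

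The DRB-only peaks were low and narrow. Their scores, the authors' own values within 1 list and at least 50 in each, had a median of 56.2 (quartiles 52.7 and 63.3, highest 410.53), and 64.8% lay below 60. Shared DRB peaks had a median of 66.9 and quartiles of 55.8 and 91.5. Only 39 DRB-only peaks (2.59%) scored at least 100, against 608 shared peaks (20.8%). The median width was 152 bp against 195 bp. With the DRB list cut into 10 equal bins by score, DRB-only peaks made 55.5% of the lowest bin and 4.51% of the highest. These scores come from the library that chose the members, so they describe the set and test nothing.

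The boundary of the rule ran between very similar regions. Of the members, 3 lay 1 bp from a DMSO peak. One of them, inside Map3k5 (a stress-activated kinase), scored 69.05, and the others scored 60.31 and 57.5. The 3 DRB peaks that shared just 1 bp with a DMSO peak, and so were not members, scored 58.82, 57.8 and 51.23, and the first lay at an end of Etv4, an ETS transcription factor. Presence elsewhere was alike: the 3 members lay in 5 to 7 other lists and the 3 neighbours in 7 or 8. Over all members the median distance to the nearest DMSO peak was 6207 bp. For 556 (36.9%) it was at most 1 kb, and for 780 (51.8%) it was more than 5 kb. The DMSO peaks nearest to those 556 had a median score of 79.9, against 76.5 over all DMSO peaks.

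**Figure D1:**
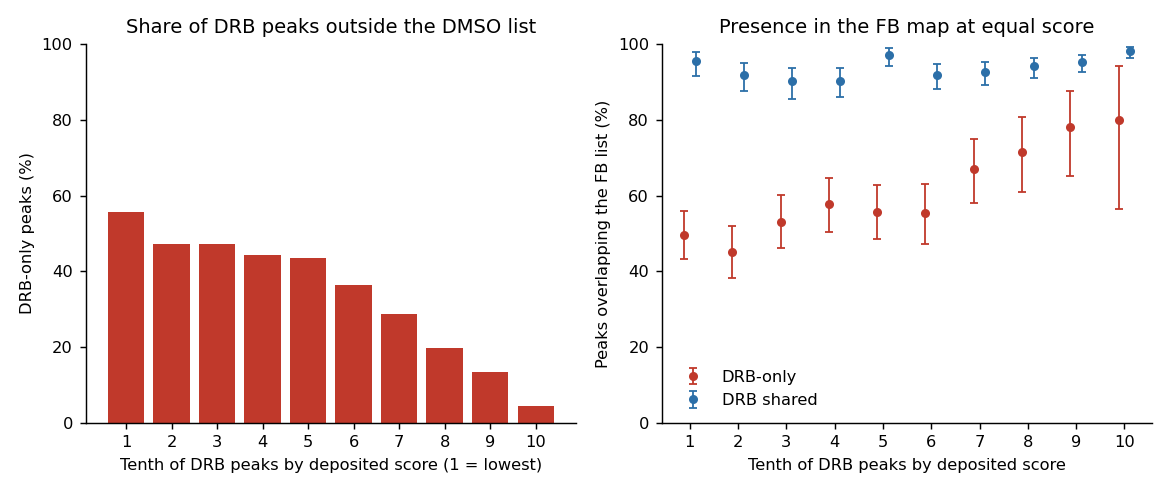
Left, share of DRB peaks that were DRB-only (%) in each of 10 equal bins of the DRB list by deposited score. Right, share of DRB-only (red) and shared (blue) peaks that overlapped the FB list (%), with exact 95% intervals. The share of DRB-only peaks falls from 55.5% to 4.51%, and in every bin the red point lies below the blue one. Blue peaks were by the rule also called in the DMSO list.

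Most DRB-only peaks lay in the FB map, which the rule did not use. The FB list held 846 of 1507 (56.1%, exact Clopper-Pearson 95% interval 53.6 to 58.7) and the cFB-KI list 648 (43.0%, 40.5 to 45.5). Shared DRB peaks reached 94.0% (93.1 to 94.8) and 68.6% (66.8 to 70.2), and all 31189 DMSO peaks 70.3% and 49.2%. Both shares of the DRB-only peaks thus lay below those of either comparison set, outside the intervals. These intervals cover counting error only, and with 1 library per map there is no replicate spread to test against.

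The gap to the shared peaks was also present at equal DRB score. By the rule, shared peaks were also called in a second WDR43 list, DMSO, and members were not. Equal DRB score does not remove this difference in selection. Its part in the higher shares of shared peaks in FB, cFB-KI and ActD was not tested. In the lowest of the 10 score bins, 49.6% (43.2 to 56.0) of 246 DRB-only peaks and 95.4% (91.5 to 97.9) of 197 shared peaks lay in the FB list. In bin 9 of 10 these were 78.0% (65.3 to 87.7) of 59 and 95.3% (92.7 to 97.2) of 383. With the members cut into 3 equal groups by their own score, the FB share was 48.8% (44.4 to 53.3) in the lowest and 65.6% (61.3 to 69.8) in the highest. In the cFB-KI map the same groups held 39.8% and 44.5%, with overlapping intervals.

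The 854 FB peaks that held a DRB-only peak had a median score at percentile 78.3 of their list, and the 627 cFB-KI peaks at percentile 70.5. For peaks holding a shared DRB peak these were 88.8 and 74.0, and for those holding any DMSO peak 70.8 and 64.4. Of the 846 members in the FB list, 342 (40.4%) lay in an FB peak that also covered a DMSO peak, and in cFB-KI this was so for 391 of 648 (60.3%). Of all FB peaks 48.1% covered a DMSO peak, and of all cFB-KI peaks 57.3%. FB peaks with a member were wider (median 534 bp) than all FB peaks (318 bp).

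ActD, the other block of transcription, shared little with these regions. Only 14 DRB-only peaks (0.929%, 0.509 to 1.55) lay in the ActD list, against 268 shared peaks (9.18%, 8.16 to 10.3) and 1.01% of all DMSO peaks. The ActD list is short, with 407 peaks. Of the 14, 3 lay inside Rn4.5s and 2 in Gm17279, and 1 was at an end of a coding locus, Ttc14. Among the 39 members with a score of at least 100, 6 (15.4%) were in the ActD list.

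Of the DRB-only peaks, 914 (60.7%) overlapped at least 1 of the 12 Pol II lists. These lists come from the hairpin cells and not from the DRB-treated ones, so they do not show Pol II under DRB. The count over all 12 lists was made for the members only. The hypoP form accounted for most of the 914. Its lists held 48.4% and 48.7% of the members in shCtl and 54.3% and 51.7% in shWDR43, and 683 (45.3%) were in all 4. Both shWDR43 libraries stood above both shCtl libraries, by a mean of 4.41 percentage points. With 2 libraries against 2 the exact permutation test (two-sided) gave p = 0.333, the smallest it can give, and 0.5 after Benjamini-Hochberg adjustment over the 3 forms. The shWDR43 hypoP lists were longer, with 31473 and 24485 peaks against 19542 and 19561. Over all DMSO peaks the hypoP lists held 50.7% and 50.8% in shCtl and 58.8% and 54.3% in shWDR43, and over shared DRB peaks 67.7% and 67.5%, then 71.1% and 69.3%. The same order of libraries was thus present in all 3 sets, and the part of list length was not tested.

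Ser5P, the form found near gene starts, had the largest difference of the 3 forms. Its lists held 3.72% and 5.04% of the members in shCtl and 15.99% and 18.8% in shWDR43, so the groups did not overlap. The shWDR43 mean was 13.0 percentage points higher, and the exact permutation p was 0.333, again the smallest possible. Both shWDR43 lists and neither shCtl list held 118 members, and the reverse was so for 6. The Ser5P lists held 1879 and 2520 peaks in shCtl and 6535 and 7589 in shWDR43. Over all DMSO peaks the shCtl lists gave 5.55% and 7.34% and the shWDR43 lists 17.1% and 19.7%. Over shared DRB peaks the shCtl lists gave 14.0% and 16.7% and the shWDR43 lists 32.9% and 35.5%. The part of list length in the difference was not tested.

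Ser2P, the elongating form, held few of these regions. In shCtl its lists held 5.37% and 6.64% of the members, in shWDR43 5.77% and 5.57%, and both shWDR43 values lay inside the shCtl range (exact permutation p = 1.0). Shared DRB peaks stood higher, between 9.90% and 10.3%, and all DMSO peaks between 5.54% and 6.04%. In each of the 12 Pol II lists the share of all members was below that of all shared peaks. At ends of coding loci alone, the Ser2P order was the reverse, with overlapping intervals. There the shCtl lists held 11.8% and 15.4% of members against 11.4% and 12.7% of shared peaks. The shWDR43 lists held 14.9% and 14.6% against 12.2% and 11.9%. Inside and outside coding loci the members stayed below in all Ser2P lists.

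**Figure D2:**
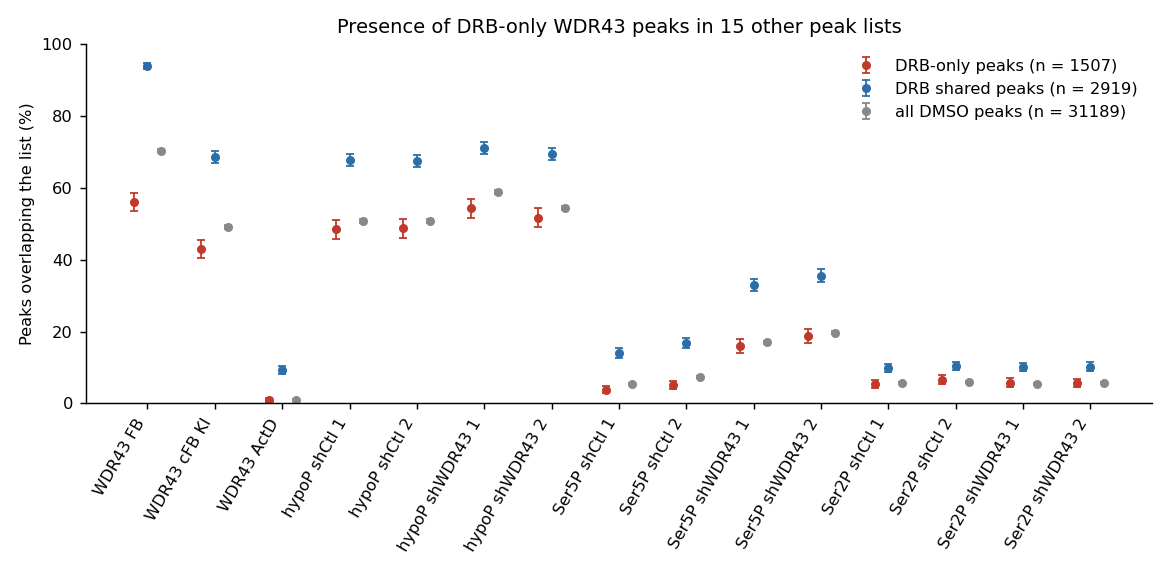
Share of peaks (%) that overlapped each of 15 other lists, for DRB-only (red), shared DRB (blue) and all DMSO peaks (grey), with exact 95% intervals. Red points lie below blue ones in every list, and the Ser5P shares of DRB-only peaks are 3.72% and 5.04% in shCtl against 15.99% and 18.8% in shWDR43.

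Presence in other lists, combined here for the members only, came together. A WDR43 map and a Pol II list both held 778 members (51.6%), a WDR43 map alone 179 (11.9%) and Pol II alone 136 (9.02%). In none of the 15 other lists were 412 members (27.3%, 25.1 to 29.7). Only 1 was in all 15, a peak of 99 bp at chromosome 17, 13744402 to 13744500, inside the noncoding locus 2700054A10Rik, with a score of 55.04 and 34 bp from a DMSO peak. The next was a peak inside Brd2 in 14 lists, missing from ActD only.

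Members close to a DMSO peak were mostly in other lists too, and distant ones often in none. Of the 419 members within 300 bp of a DMSO peak, 86.9% (83.3 to 89.96) were in the FB map, 74.7% in cFB-KI and 82.1% in all 4 hypoP lists, and 8 (1.91%) were in no other list. Of the 337 members more than 50 kb away, 42.4% (37.1 to 47.9) were in the FB map, 19.9% in cFB-KI and 29.4% in all 4 hypoP lists, and 148 (43.9%) were in none. Members 1 to 5 kb away had the lowest share in all 4 hypoP lists, 17.5% (12.2 to 24.1). The median score changed little over these distances, from 57.4 in the nearest to 56.1 in the farthest set. Ends of coding loci made 34.6% of the nearest set and 9.79% of the farthest.

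**Figure D3:**
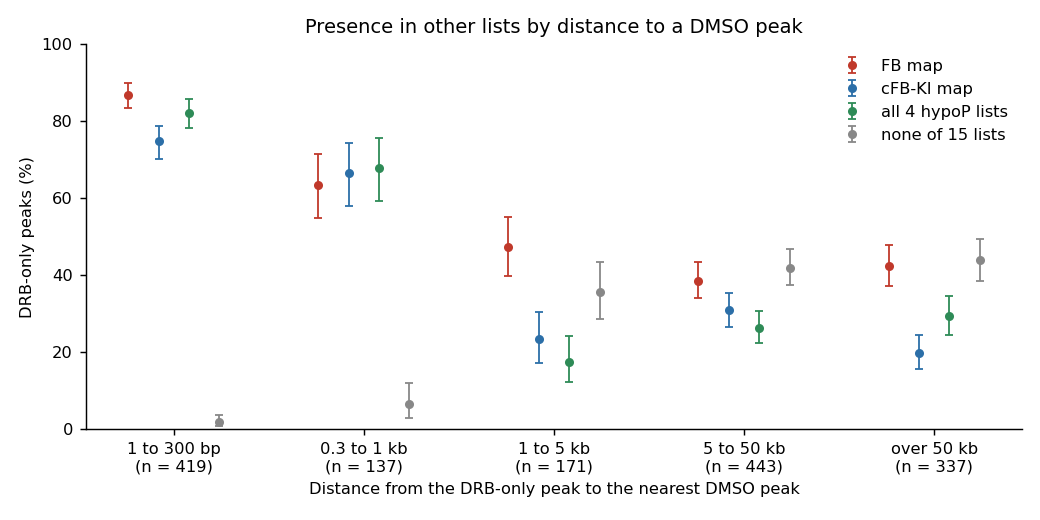
Share of DRB-only peaks (%) found in the FB map, the cFB-KI map, all 4 hypoP lists or none of 15 lists, by distance to the nearest DMSO peak, with exact 95% intervals and n per bin. Within 300 bp 86.9% lie in the FB map and 1.91% in no list. Beyond 50 kb these are 42.4% and 43.9%.

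A smaller share of DRB-only than of shared peaks lay at ends of coding loci. Within 1 kb of either end were 356 (23.6%, 21.5 to 25.9), inside a coding locus 308 (20.4%, 18.4 to 22.6) and outside 843 (55.9%, 53.4 to 58.5). For shared peaks these were 34.0% (32.3 to 35.8), 16.6% and 49.4%, and for all DMSO peaks 33.8%, 21.0% and 45.2%. The deposited loci carry no exons, so exon, intron and untranslated region are not assigned. The share at ends was below that of shared peaks in all 10 score bins. It was 20.1% (14.9 to 26.2) against 43.2% (36.7 to 49.8) in bin 2, and 18.2% (10.8 to 27.8) against 34.4% (29.4 to 39.6) in bin 8. The intervals of the 2 sets were apart in 4 of the 10 bins and overlapped in the other 6. The rule excludes DRB peaks that overlap a DMSO peak, and 33.8% of DMSO peaks lay at ends. Score bins do not remove this, and its part in the lower share was not tested.

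The end class was the one most shared with other maps. Of its 356 members, 270 (75.8%) were in the FB map, 300 (84.3%) in cFB-KI and 256 (71.9%) in all 4 hypoP lists, and only 15 (4.21%) were in no other list. A median of 6 other lists held an end member, against 1 for members inside loci and 2 for those outside. Inside loci 51.0% were in the FB map and 31.5% in cFB-KI, and outside them 49.7% and 29.8%. In no other list were 34.4% of the inside and 34.5% of the outside members.

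At ends with a known strand, 249 of 278 DRB-only peaks (89.6%, 85.4 to 92.9) lay at the 5′ end only, 17 at the 3′ end and 12 within reach of both. Shared peaks were at the 5′ end for 684 of 741 (92.3%, 90.1 to 94.1). The middle of a DRB-only peak lay further into the gene, at a median of 213 bp downstream of the deposited start (quartiles -32 and 432.5, n = 261), against 62.5 bp for shared peaks (quartiles -78 and 237.5, n = 705). Upstream of the start lay 25.7% (20.5 to 31.4) of DRB-only and 36.9% (33.3 to 40.6) of shared middles. The rule keeps DRB-only peaks off the bases of DMSO peaks and requires shared peaks to overlap one. Its part in the difference of position was not tested.

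**Figure D4:**
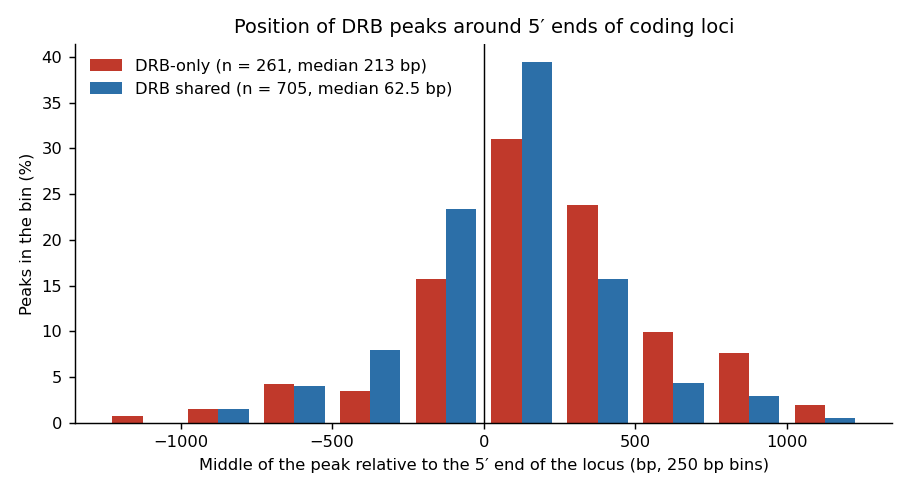
Position of the middle of each peak relative to the 5′ end of its coding locus (bp, positive into the gene), as a share (%) of 261 DRB-only (red) and 705 shared (blue) peaks in 250 bp bins. The red bars are shifted to the right, with medians of 213 and 62.5 bp. The rule keeps red peaks off DMSO peaks, and its part in the shift was not tested.

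Of the 10 highest scored members, 9 lay outside coding loci. The highest member, 410.53, was on an unplaced contig of chromosome 8 (8_random, 681420 to 683574), 79 bp from a DMSO peak and inside FB, cFB-KI and ActD peaks. Of the next 9, 5 lay in Rn4.5s on chromosome 6, the annotated tandem array of the 4.5S RNA gene, a small rodent RNA made by RNA polymerase III. Rn4.5s (47604920 to 47702924) held, with 1 kb on either side, 7 DRB-only peaks with scores from 52.8 to 351.52, and the unnamed transcript that covers it, XLOC_019212, held 9. All 9 lay in FB peaks, 3 in ActD peaks and none in cFB-KI or Pol II peaks. The array as a whole held 18 DRB peaks over 25129 bp and 9 DMSO peaks over 15435 bp, with 20 peaks over 44099 bp in FB, 10 over 10186 bp in ActD and 1 in cFB-KI. No hypoP or Ser2P list had a peak in Rn4.5s, and Ser5P lists had 0 to 3. Copies of such an array are nearly identical, so reads cannot be assigned to a single copy with confidence.

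Other repeated or unplaced regions followed. Gm17279, a long noncoding locus on chromosome 8 (19888055 to 20016359), held 4 members, the highest at 202.31 in FB and ActD peaks and no Pol II peak. Contigs without a place held 59 members (3.92%), against 2.77% of shared DRB peaks and 1.48% of all DMSO peaks. Of the 59, 30 were in no other list, 21 in FB and 5 in cFB-KI. Those of chromosome Y alone held 40 (2.65%), against 1.88% of shared DRB peaks and 0.385% of all DMSO peaks, and 4 of the 5 highest scored members without any other list lay there. The fifth, on chromosome 2 (166267387 to 166267443), was 57 bp wide and scored 131.88.

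At ends of coding loci the highest score was 135.18, at the start of Actg1, the gene of cytoplasmic gamma-actin (chromosome 11, 120209480 to 120209821). This peak lay 21233 bp from the nearest DMSO peak, in FB but not cFB-KI, and in 5 Pol II lists. The next, at 122.33, lay 301 to 527 bp into Surf4, a cargo receptor of the endoplasmic reticulum, 29 bp from a DMSO peak and in 9 other lists. A peak at the 3′ end of Ipo13, a nuclear import receptor, scored 107.57 and was in FB and a single Ser2P list. The others of the 10 highest were at the 5′ ends of Dyrk1a, Ube2r2, Hax1, Marveld1 and, between them, 4933434E20Rik and Ubap2l, with scores from 99.2 to 105.87, and at Gm711, which shares the Surf4 peak. Inside loci the highest were in March1 (111.72), Unc5d (110.0) and Prmt8 (100.79).

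Some genes held several members. Brd2, which encodes a BET bromodomain protein that binds acetylated histones (chromosome 17, 34248964 to 34258692), held 4, with scores from 51.2 to 76.6. All 4 lay in FB and cFB-KI peaks and in 9 to 12 Pol II lists, 22 to 903 bp from a DMSO peak. Every one of the 4 DRB peaks at Brd2 was thus a member, while 2 DMSO peaks there covered 1680 bp. Ier2, an immediate early gene, held 3 members, in 1 to 9 other lists. C130026I21Rik held 4 members that were in at most 1 other list, and BC055351 held 3.

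Genes of pause release, the step that DRB blocks, held DRB-only peaks for 7 of 31. The 5 highest scored were at Hexim1, which holds P-TEFb inactive together with 7SK RNA, at Aff1, Ell and Ell3 of the super elongation complex, and at Cdk13, a kinase of the Pol II tail. The 7 genes were 22.6% of the list, against 4.17% of all 12452 genes tested for RNA, and 6 of the 7 had the peak at an end. DMSO peaks stood at 87.1% of its loci, against 73.3% of tested genes, and the lists were drawn up with earlier results of these data known. Among 34 processome and nucleolar genes 2 held a member, Wdr43 itself and Wdr3. The Wdr43 peak (chromosome 17, 71992072 to 71992177, score 62.65) lay inside the locus, 1302 bp from a DMSO peak, and was in no other list.

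The other gene groups are counted over all their loci, tested or not. A DRB-only peak stood at 2.52% of all 38582 loci and at 4.17% of tested genes. Among tested genes only, 5 of 100 ribosomal protein genes and 1 of 14 immediate early genes held one. Of 104 ribosomal protein loci 5 had a DRB-only peak (Rps15a, Rpl7a, Rpl9, Rpl22 and Rpl10a), or 4.81%, and the Rpl10a peak was in 13 other lists. Pluripotency genes had 3 of 30, the transcription factors Klf2, Mycn and Esrrb. Targets of p53 had 3 of 20 (15.0%): Btg2, an antiproliferative gene, Bax, a mediator of apoptosis, and Ddit4, an inhibitor of mTORC1. Snhg6 was 1 of 11 snoRNA host genes and Ier2 1 of 18 immediate early genes. None of the 65 replication-dependent histone loci held a DRB-only peak, and 27 held a shared DRB peak. DMSO peaks stood at 98.5% of these loci, and the rule excludes any DRB peak that overlaps one. None of the 18 small noncoding RNA genes, chosen by the start of their symbols, held either kind of DRB peak. That list leaves out Rn4.5s, which held 7 DRB-only peaks.

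RNA asked whether genes with a DRB-only peak changed when WDR43 was depleted. Of 973 loci with such a peak, 701 were protein-coding and 519 had a mean of at least 1 FPKM and were tested. In shWDR43 240 of them (46.2%) were lower, against 42.7% of all 12452 tested genes, and 30 (5.78%) were higher, against 6.10%. The median log2 fold change was -0.41, against -0.39 over all genes (limma on log2(FPKM + 1), Benjamini-Hochberg adjusted p under 0.05). Both shares lay near the background. Where the peak was at an end, 179 of 353 genes (50.7%) fell and 17 rose, and the median was -0.46. Where it was only inside, 61 of 166 (36.7%) fell and 13 rose, and the median was -0.33. Genes with a shared DRB peak and no DRB-only peak were lower in 49.0% and had a median of -0.44.

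These counts rest on the deposited spike-in scale and on all 4 libraries. With each library centred on its median, a shift of 0.33 for every gene, 120 of the 519 genes were called lower and 77 higher, against 20.9% lower and 13.0% higher of all tested genes. The lower part of the calls was then 60.9% where it had been 88.9%, and over all genes 61.7% where it had been 87.5%. No limma call was left when a library was omitted, whichever of the 4 it was, while the median log2 fold change of the 519 genes stayed between -0.47 and -0.36. Such a fit has 1 library in a group, which is assumed to vary like the others. Without adjustment, 184 to 224 genes were then lower and 22 to 37 higher at p under 0.05. Fewer cells and less RNA per cell cannot be told apart in such bulk samples.

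Ldha, the lactate dehydrogenase subunit of glycolysis, fell most. The shCtl libraries gave 475.3 and 523.7 FPKM and the shWDR43 libraries 102.1 and 90.7, so the groups did not overlap. Its log2 fold change was -2.36 ± 0.12 (SE, limma, adjusted p = 0.000717), and -2.03 after centring. The peak inside Ldha scored 52.5 and was in 4 other lists, all of Pol II. Wdr43, the target of the hairpin, fell by 1.89 ± 0.12 on the log2 scale (SE, limma, adjusted p = 0.000751). XLOC_021567 (-2.06), the protein phosphatase gene Ppm1j (-1.97) and Spry4 (-1.78), a feedback inhibitor of growth factor signalling, fell as well and were still lower after centring.

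The 5 largest rises were at genes with the peak at an end, as were 353 of the 519 tested genes. Of those 353 genes 17 (4.82%) were higher, against 13 of 166 genes (7.83%) with the peak only inside, a set of lower expression. Btg2 went from 11.7 and 11.5 FPKM in the shCtl libraries to 45.8 and 39.0 in the shWDR43 libraries, a log2 fold change of 1.78 ± 0.14 (SE, limma, adjusted p = 0.000992). Its peak scored 96.55, began 17 bp into the gene and was in cFB-KI and 6 Pol II lists. Ddit4 rose from 13.1 and 15.6 to 46.1 and 45.0 FPKM (log2 fold change 1.61), and Cpne2, a copine that binds membranes in response to calcium, from 1.9 and 2.1 to 9.1 and 8.1 (1.68). Adc rose by 1.86 and Hyal1, a hyaluronidase with the peak beyond its 3′ end, by 1.72 on the log2 scale. The rule that chose these 5 genes required the groups to lie apart. After centring the values were 1.94 to 2.19.

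Genes of the groups above went different ways. Against all tested genes, 42.7% lower and 6.10% higher, or 20.9% and 13.0% after centring, the whole lists gave these counts. Pause release genes were lower for 21 of 31 and higher for 0 (9 and 2 after centring), at a median log2 fold change of -0.53 where all tested genes had -0.39. Processome and nucleolar genes were lower for 31 of 33 (25 after centring, median -0.85), ribosomal protein genes for 90 of 100 (70, median -0.80) and pluripotency genes for 25 of 30 (18, median -0.80). Targets of p53 were higher for 13 of 20 and lower for 0 (17 and 0 after centring, median 1.00). Histone genes, which held no DRB-only peak, were higher for 14 and lower for 11 of 55 (22 and 9 after centring), and immediate early genes higher for 5 and lower for 3 of 14 (8 and 2). The snoRNA host genes were lower for 7 of 11 (4 after centring), and small noncoding RNA genes for 2 of 10 with 2 higher (2 and 3). These counts are over whole lists, of which few genes hold a DRB-only peak.

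Genes of these lists with such a peak were as follows. The 5 ribosomal protein genes were lower, from Rpl10a (-1.02) to Rps15a (-0.60), and Rps15a missed the threshold after centring (-0.27). Of the pluripotency genes, Mycn (-0.70), Klf2 (-0.53) and Esrrb (-0.36) were lower, and after centring only Mycn was. The summed ES cell markers given above were lower in the same libraries, and their part in this was not tested. Without limma's trend, Klf2 (adjusted p = 0.0535) and Esrrb (adjusted p = 0.070) missed the threshold in limma. Wdr3 was lower (-0.81), and so was Ier2 (-0.85). Snhg6 was lower too (-0.59), but missed the threshold after centring (-0.26). Of the pause release genes named by the rule, Hexim1 (-0.23), Aff1 (0.03), Ell (0.07), Ell3 (0.23) and Cdk13 (-0.39) did not pass, and after centring Aff1 was higher (0.36). Cdk13 had a limma adjusted p of 0.0515, and passed among genes of mean FPKM at least 5 (0.0361) and with the replicate block (0.0285). Among genes with the highest scored end peaks, Hax1, which encodes a mitochondrial protein, fell from 73.5 and 81.8 to 42.5 and 33.9 FPKM (log2 fold change -1.01). Actg1 went from 972.0 and 1019.7 to 701.7 and 635.8 FPKM (-0.58), and Ubap2l (-0.60) and Ube2r2 (-0.54) were lower too, but these 3 missed the threshold after centring. Surf4 (-0.30), Dyrk1a (-0.14), Ipo13 (-0.02), Marveld1 (0.04), 4933434E20Rik (-0.31), Brd2 (-0.28) and Bax (-0.19) did not pass, and Gm711 was listed at 0 in all libraries.

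**Figure D5:**
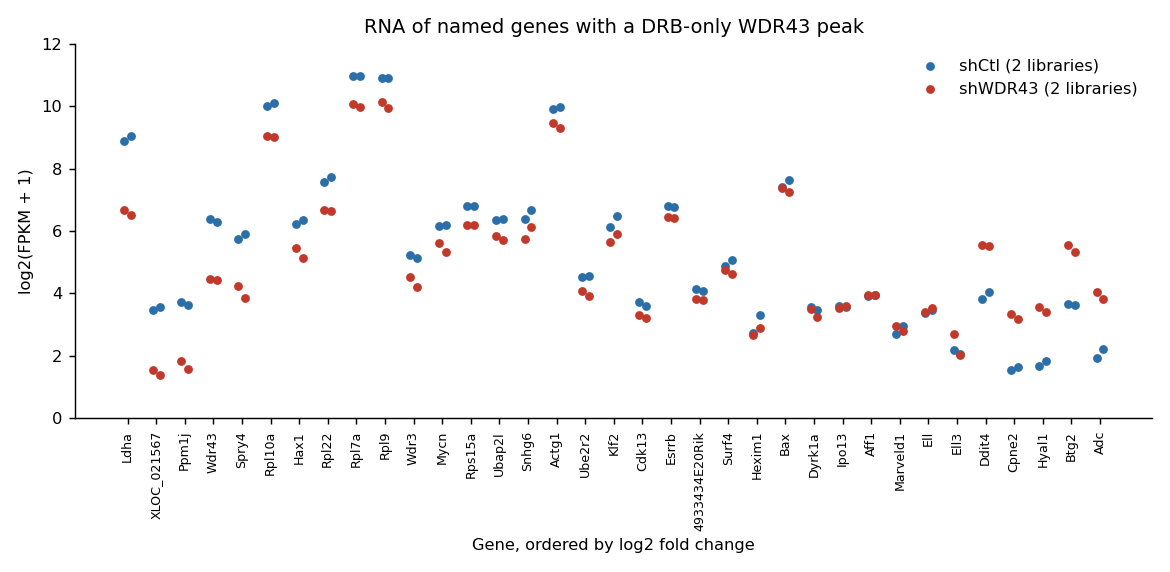
RNA level, log2(FPKM + 1), of genes named here that have a DRB-only peak and were tested, with 1 point per library for shCtl (blue) and shWDR43 (red), ordered by log2 fold change. Ldha lies at the left end with -2.36, and Ddit4, Cpne2, Hyal1, Btg2 and Adc at the right end rise by 1.61 to 1.86.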

How the data were processed

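The authors deposited 1 peak list per ChIP library with a score per peak. Peak names carry MACS, and Bowtie2 and mm9 are named per the submitters' processing notes. For caller settings and controls the sources used here give nothing, and ChIP depth is unknown. The authors deposited 1 value per gene for 38582 genes in 4 RNA libraries, biological replicates per the file headers. The unit was taken as FPKM because the submitters' processing notes name Cufflinks (with TopHat). The title names spike-in, how it was scaled is not stated, totals ran from 681178 to 1040749, and RNA depth is unknown.

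Overlap meant at least 1 bp. Peaks lay at an end (within 1 kb) of a coding locus, inside it or outside. Strand came from RefSeq by symbol. Coordinates are 1-based mm9 unless GRCm38.p6 is named. Shares carry exact 95% intervals. RNA was tested by limma (version 3.58.1, R 4.3.3), trend included, with a pseudocount of 1 before log2, on genes of mean FPKM at least 1, and p-values were adjusted (Benjamini-Hochberg) over all 12452. On simulated data with 200 changed genes it recovered 34% of 50 2-fold and 76% of 50 4-fold changes. In the real data 5322 genes were called lower and 760 higher, so these shares do not give the sensitivity there. ChIP p-values measure the spread between libraries, which may be technical.

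The members and lists were chosen with earlier results of these data known. Named regions were the 10 highest scored members, the top 3 per class, the 5 in most and the 5 highest in no other list, and those at the rule's boundary. Named genes had the 10 highest end peaks, the most members, the 5 largest rises or falls past the threshold with groups apart, or list membership (up to 5 per list by score). Input, construct, chrTAP and chrCLIP samples are not analysed here.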

Additional observations from a re-analysis of the deposited data

How the results depend on the processing

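The number of DRB-only peaks, 1507, was 951 with no DMSO peak allowed within 1 kb, 780 within 5 kb, 39 for DRB scores of at least 100 and 2449 against DMSO peaks of at least 100. Shares at ends, inside and outside were 18.5%, 24.2% and 57.3% with ends of 500 bp, 27.5%, 17.8% and 54.7% with 2 kb, 33.4%, 15.2% and 51.4% with 5 kb, 28.5%, 26.0% and 45.5% over all loci of the table, and 17.9%, 7.69% and 74.4% for members scoring at least 100. Shares in FB, cFB-KI and ActD were 50.2%, 41.8% and 0.796% when 50% of a peak had to be covered, 43.1%, 34.0% and 0.199% for list scores of at least 100, 79.5%, 38.5% and 15.4% for member scores of at least 100, and 41.5%, 25.7% and 0.841% for members over 1 kb from a DMSO peak.

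In Pol II lists, the shWDR43 minus shCtl difference in percentage points ran from 2.99 to 5.84 for hypoP and from 11.6 to 14.4 for Ser5P with libraries left out. For Ser2P it ran from -1.06 to 0.40, above 0 without shCtl library 2 (0.30) and without library 2 of both groups (0.40). The replicate block left these differences at 4.41, 13.0 and -0.33. Same-numbered RNA libraries showed little shared deviation (r = 0.05 over 12452 genes), which cannot show that the numbers mark no shared batch. With the block 262 genes with a DRB-only peak were lower and 34 higher. Over all tested genes it gave 5926 lower and 840 higher, against 5322 and 760 without it.

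RNA counts of 240 lower and 30 higher genes became 120 and 77 with centred libraries (median -0.075), 29 and 14 without the filter on low values (median -0.069, 973 loci) and 179 and 17 for genes with the peak at an end, a smaller set. The median was -0.52 for mean FPKM of at least 5. Without any 1 library limma called 0 lower and 0 higher genes, against 184 to 224 and 22 to 37 at an unadjusted p under 0.05. Apart from the smaller set, the cause was not tested. Centring turned 7 uncalled genes to above 0, 4933434E20Rik (0.025), Bax (0.14), Brd2 (0.045), Dyrk1a (0.19), Hexim1 (0.10), Ipo13 (0.31) and Surf4 (0.034). With libraries left out, uncalled values ran from -0.0060 to 0.14 for Ell, -0.10 to 0.56 for Ell3, -0.51 to 0.048 for Hexim1, -0.061 to 0.012 for Ipo13 and -0.088 to 0.17 for Marveld1. The depth of all libraries is unknown and limits what a missing peak can show.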
